A study of Mus musculus with 12 samples.

Results

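The RNA levels of 35 genes that act in the G2 phase of the cell cycle and in mitosis were followed in cultured mouse nephron progenitor cells (NPCs), the self-renewing cells that give rise to the nephrons of the kidney. The genes were chosen by name, as the rows of the deposited tables whose gene symbol is on the list, and all 35 were found among 54184 genes. By role they are 5 genes of the cyclin-dependent kinase and its cyclins, 6 mitotic kinases, 3 genes of the spindle checkpoint and the anaphase-promoting complex, 7 genes of the centromere and kinetochore, 4 mitotic kinesins, 6 genes of the spindle and cytokinesis and 4 genes of chromosome structure.

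The study sequenced 12 libraries from wild-type NPCs of E13.5 embryos (CD1 dams, Six2GFP+ or GFP- males), isolated with magnetic beads, expanded in nephron progenitor expansion medium (NPEM) for 2 to 3 passages and then cultured for 24 h. There were 4 groups of 3 libraries, kept in NPEM, in DMEM as a control, or in DMEM with CHIR or YN1, and they are called NPEM, DMEM, CHIR and YN1 below. The drug media held DMEM, knockout serum replacement and 200 ng/mL Fgf2, with either 3.5 µM CHIR99021 (CHIR), an inhibitor of the kinase GSK3 that activates WNT signaling, or 20 µM YN1, an inhibitor of the glycolysis regulator PFKFB3. The supplements of the DMEM control are not described in the sources used here, so a drug and the supplements of its medium cannot be told apart in the comparisons with the DMEM control. In the comparisons of CHIR and YN1 with NPEM, the medium changes along with the drug, and these cannot be told apart either. Replicates are described as independent NPC preparations. Each group has replicates numbered 1, 2 and 3, but the labels do not say what a number stands for.

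A dividing cell makes most of these transcripts from late S phase to mitosis. CDK1 with a B-type cyclin drives entry into mitosis, Aurora and Polo-like kinases build the spindle, the kinetochore ties each chromosome to it, the spindle checkpoint holds back the anaphase-promoting complex until all chromosomes are attached, and kinesins and the cytokinesis proteins then part the cells. In the developing kidney, NPCs divide to keep their own number while part of them is induced to form nephrons. In bulk libraries, fewer cells in G2 or mitosis and less RNA in each such cell cannot be told apart.

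Many genes of this phase share short promoter elements. The cell cycle genes homology region (CHR), most often written TTTGAA and in some genes TTTAAA, is known as the site of the MuvB complexes, and CCAAT as the site of the factor NF-Y. The RefSeq promoter windows (GRCm38.p6, 250 bases before to 50 after the gene start) matched 32 of the 35 genes. Ccna2, Aurkb and Tpx2 had no matched window. With both strands searched, TTTGAA was in the window of 23 of 32 genes (71.9%) and in 20.2% of all 27025 symbols with a window, CCAAT in 24 of 32 (75%) and in 41.1%, and TTTAAA in 9 of 32 (28.1%) and in 14.9%. CCAAT together with either CHR form was present in 68.8% of the genes and in 13.4% of all symbols. The TTTGAA matches lay near the start: 14 of 32 genes had one in the 50 bases after it (43.8%, all symbols 2.64%), and none in the bases -250 to -201 (0%, all symbols 4.8%). CCAAT matches were most frequent at -100 to -51 and at -50 to -1, with 50% of the genes in each of these windows, against 14.4% and 10.5% of all symbols. None of the 3 elements was found in 4 of the 32 windows, against 41.8% of all symbols. A match is a description of the letters, and binding was not measured here.

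The windows of 4 genes that the results below turn on are shown for their different element sets, 5′ to 3′ on the gene's strand, with the CHR forms TTTGAA and TTTAAA and the motif CCAAT, or their reverse complements, in capitals. Cdk1 (chr10:69352863-69353162, minus strand) holds TTTGAA at -71 and -15 and CCAAT, on the opposite strand, at -208, -80 and -48. Ccnb1 (chr13:100786437-100786736, minus strand) holds the TTTAAA form at -42 behind CCAAT at -99 and -67. Cks2 (chr13:51644982-51645281, plus strand) holds 4 CCAAT matches and neither CHR form in this window, and Ube2c (chr2:164769679-164769978, plus strand) has CCAAT matches from -228 to -57 and TTTGAA, on the opposite strand, at -29.
Cdk1: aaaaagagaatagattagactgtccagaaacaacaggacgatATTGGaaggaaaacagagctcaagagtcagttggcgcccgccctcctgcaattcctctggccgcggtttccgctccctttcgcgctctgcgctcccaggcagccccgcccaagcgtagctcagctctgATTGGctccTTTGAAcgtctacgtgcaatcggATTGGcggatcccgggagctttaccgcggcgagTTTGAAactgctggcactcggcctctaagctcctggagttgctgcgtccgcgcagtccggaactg
Ccnb1: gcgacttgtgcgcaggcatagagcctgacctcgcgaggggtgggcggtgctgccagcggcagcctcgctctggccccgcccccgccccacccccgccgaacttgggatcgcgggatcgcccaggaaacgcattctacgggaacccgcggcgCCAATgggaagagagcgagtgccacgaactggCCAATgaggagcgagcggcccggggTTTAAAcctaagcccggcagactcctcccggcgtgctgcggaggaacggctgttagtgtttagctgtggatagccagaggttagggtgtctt
Cks2: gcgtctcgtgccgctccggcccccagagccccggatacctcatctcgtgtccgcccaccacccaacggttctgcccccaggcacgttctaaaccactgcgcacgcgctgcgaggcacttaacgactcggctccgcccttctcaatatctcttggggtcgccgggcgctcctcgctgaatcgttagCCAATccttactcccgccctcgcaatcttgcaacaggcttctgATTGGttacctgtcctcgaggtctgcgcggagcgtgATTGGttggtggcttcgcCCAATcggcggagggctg
Ube2c: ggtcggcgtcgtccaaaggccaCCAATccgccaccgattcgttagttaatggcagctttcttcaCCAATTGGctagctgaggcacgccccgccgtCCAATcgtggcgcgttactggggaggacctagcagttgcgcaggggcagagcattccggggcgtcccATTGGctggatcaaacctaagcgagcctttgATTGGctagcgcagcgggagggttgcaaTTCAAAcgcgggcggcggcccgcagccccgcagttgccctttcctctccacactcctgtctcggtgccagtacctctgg

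All 35 genes were well expressed in every library. Their levels are given in TPM, the abundance of a transcript relative to all others in its library, which is scaled for transcript length and can be compared between genes. Cdk1, the kinase that drives mitotic entry, was the most abundant with a mean of 377 TPM over the 12 libraries, followed by Cks2, a small CDK-binding protein, with 257 TPM, and Top2a, the topoisomerase that untangles sister chromatids, with 250 TPM. Cenpf, a large kinetochore protein, was the least abundant with 30.4 TPM and a range of 21.6 to 41.7. The fold between the highest and the lowest library was 1.61 for Ccnb2, a B-type cyclin, 2.49 for Nuf2, a subunit of the NDC80 kinetochore complex, and between these values for the other genes. In sum the 35 genes took 0.277% to 0.486% of a library's TPM.

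The groups did not separate the summed level of the 35 genes. It was 3928 ± 510 TPM in NPEM, 3609 ± 828 in DMEM, 3927 ± 691 in CHIR and 3815 ± 962 in YN1 (mean ± SD, n = 3 each). By replicate number 1, 2 and 3, the sums were 4421, 3403 and 3961 TPM in NPEM, 4318, 2700 and 3809 in DMEM, 3517, 4725 and 3540 in CHIR, and 4701, 2791 and 3953 in YN1. The libraries of all 4 groups overlapped, and the number 2 library was the lowest of NPEM, DMEM and YN1 and the highest of CHIR.

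**Figure D1:**
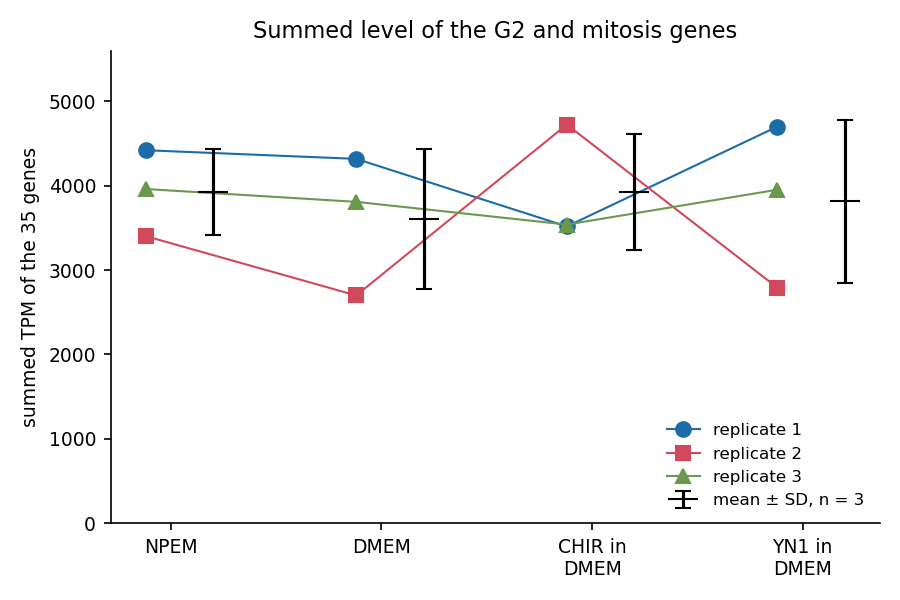
Summed TPM of the 35 G2 and mitosis genes in each library (points, with lines joining libraries of the same replicate number) and the mean ± SD of each group (black, n = 3). Replicate 2 is the lowest point of NPEM, DMEM and YN1, down to 2700 TPM in DMEM, and the highest of CHIR at 4725 TPM.

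No gene of the 35 passed the adjusted p threshold of 0.05 in any of the 6 comparisons between groups (limma on log2(TPM + 1), Benjamini-Hochberg over all genes tested). Of all genes tested, 0.446% passed for DMEM against NPEM, 0.378% for CHIR against NPEM, 0.23% for YN1 against NPEM, 0.252% for CHIR against DMEM, 0% for YN1 against DMEM and 0.00701% for YN1 against CHIR, so that none of 35 is no departure from these shares. At an unadjusted p under 0.05, Cdk1 alone passed for DMEM against NPEM, where 15.5% of all genes did. None of the 35 did in the other 5 comparisons, with shares over the whole set of 11.9% for CHIR against NPEM, 14.2% for YN1 against NPEM, 19.2% for CHIR against DMEM, 0.517% for YN1 against DMEM and 15.5% for YN1 against CHIR. The comparisons share libraries: the 3 with NPEM share its 3 libraries, as do those with DMEM.

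The median LogFC of the 35 genes, the difference of group means of log2(TPM + 1), was between -0.05 and 0.09 in the 6 comparisons, and each of these medians changed sign when 1 library was left out, as described below. For DMEM against NPEM it was -0.05, with 25 genes below 0 and 10 above, where the median of all genes was 0.09. For CHIR against DMEM it was 0.09, with 27 genes above 0 and 8 below, and that of all genes was -0.15. For YN1 against DMEM it was 0.08, with 31 genes above 0 and 4 below, beside -0.00 for all genes. The medians were 0.04 for CHIR against NPEM (23 genes above 0, all genes -0.06), 0.00 for YN1 against NPEM (18 above 0, all genes 0.09) and -0.03 for YN1 against CHIR (16 above 0, all genes 0.16). Quantile normalization, which sets the libraries to one distribution, moved the median of all genes for CHIR against DMEM from -0.15 to 0.00 and for YN1 against CHIR from 0.16 to -0.00. Relative to the median of all genes, the median of the 35 was 0.25 higher for CHIR against DMEM, or 0.20 after quantile normalization, and 0.14 lower for DMEM against NPEM, or 0.11 lower. For YN1 against CHIR this distance went from -0.19 to -0.10, for CHIR against NPEM from 0.11 to 0.06 and for YN1 against NPEM from -0.09 to -0.05. It was 0.08 under both scalings for YN1 against DMEM. With 3 libraries per group the 95% intervals were wide, and their median length to either side was 0.45 for CHIR against NPEM to 0.65 for YN1 against DMEM.

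**Figure D2:**
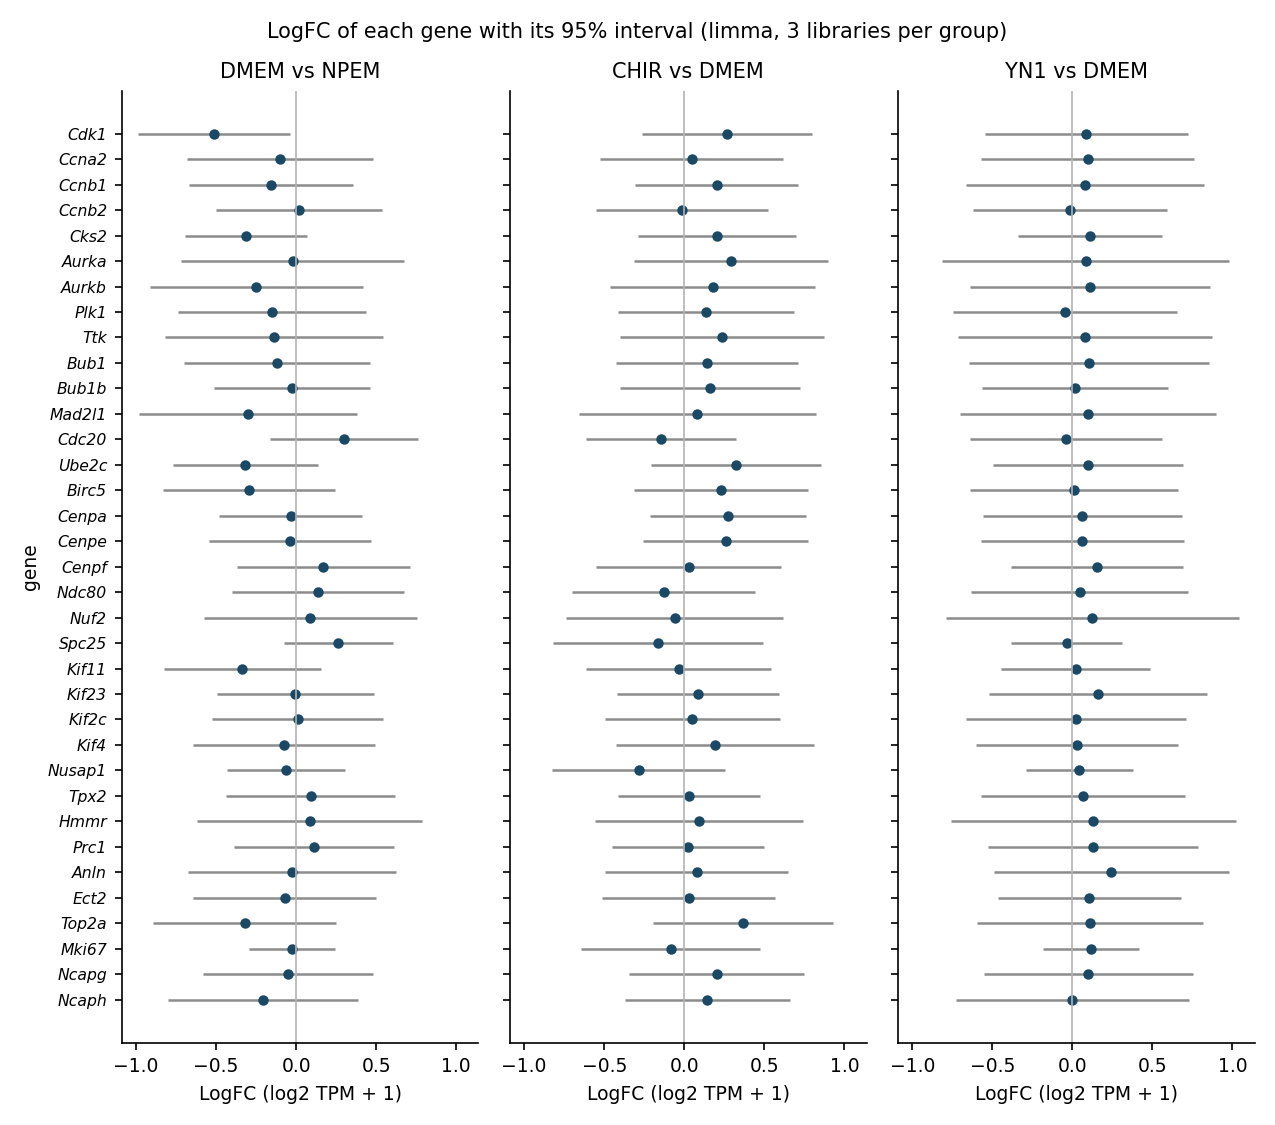
LogFC of each of the 35 genes (points) with its 95% interval (lines) from limma for DMEM against NPEM, CHIR against DMEM and YN1 against DMEM, genes ordered by role, 3 libraries per group. The interval of Cdk1 for DMEM against NPEM (-0.99 to -0.04) lies below 0, and every other interval shown crosses 0.

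Among the genes of mitotic entry, Cdk1 had the largest difference between the media. It stood at 517, 406 and 442 TPM in NPEM replicates 1, 2 and 3, at 405, 246 and 318 in DMEM, at 372, 465 and 321 in CHIR, and at 445, 252 and 339 in YN1. The 3 DMEM libraries were all under the 3 NPEM libraries, although DMEM replicate 1 and NPEM replicate 2 were within 1 TPM, and the CHIR and YN1 libraries overlapped with both controls. Groups that did not overlap, with the first lower, were found for 7.02% of all genes in DMEM against NPEM. The LogFC of Cdk1 was -0.51 (SE 0.20, 95% interval -0.99 to -0.04), with an adjusted p of 0.288 in limma. With the replicate number as a block, the same LogFC had an adjusted p of 0.0459, the single call among the 35 genes under the block (6.5% of all genes in limma), and with all 4 groups in that blocked fit it was 0.114. The block called none of the 35 in the other comparisons, where it called 1.66% of all genes for CHIR against NPEM, 0.754% for YN1 against NPEM, 12.8% for CHIR against DMEM, 0% for YN1 against DMEM and 1.56% for YN1 against CHIR. For CHIR and YN1 against NPEM the LogFC of Cdk1 was -0.25 (95% interval -0.66 to 0.17) and -0.43 (-0.95 to 0.10).

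Cks2 and Ccnb1 were, with Cdk1 and Birc5, chosen by the study from these libraries. Ccnb1, the B-type cyclin that activates CDK1, had 183, 138 and 150 TPM in NPEM, 179, 104 and 146 in DMEM, 153, 185 and 147 in CHIR, and 210, 102 and 151 in YN1. Its group ranges overlapped in every comparison, and YN1 held both its highest and its lowest value. Its LogFC for YN1 against NPEM was -0.08 (95% interval -0.71 to 0.55). Cks2 had 290, 262 and 299 TPM in NPEM, 267, 183 and 241 in DMEM, 224, 332 and 244 in CHIR, and 289, 211 and 245 in YN1. DMEM replicate 1, at 267 TPM, was above NPEM replicate 2, so these groups overlapped, and the LogFC was -0.31 (SE 0.16, 95% interval -0.69 to 0.07) for DMEM and -0.20 (-0.55 to 0.15) for YN1, each against NPEM. The mean levels of Ccna2, the cyclin of S phase and G2, and of Ccnb2 were 153 and 105 TPM, and their LogFC for DMEM against NPEM were -0.10 (95% interval -0.68 to 0.48) and 0.02 (-0.50 to 0.54).

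The 6 mitotic kinases had mean levels of 38.0 TPM, for the checkpoint kinase Ttk, to 92.1 TPM, for Aurkb of the chromosomal passenger complex. All 6 were below 0 for DMEM against NPEM (LogFC -0.25 to -0.02) and above 0 for CHIR against DMEM (0.14 to 0.29). Aurka, the Aurora kinase of the spindle poles, had 82.4, 50.9 and 69.0 TPM in NPEM, 87.5, 43.5 and 72.9 in DMEM, 85.3, 78.3 and 76.8 in CHIR, and 99.1, 43.7 and 76.3 in YN1. Its replicate 2 libraries were far under the others in NPEM, DMEM and YN1 and between them in CHIR, and its LogFC for CHIR against NPEM was 0.27 (SE 0.19, 95% interval -0.18 to 0.72). Of its variation over the 12 libraries, 68.6% of the sum of squares went with the replicate number, the largest share of the 35 genes, and 9.63% with the group.

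In the checkpoint and anaphase-promoting complex group, Cdc20, the activator of that complex, and Ube2c, its ubiquitin-conjugating enzyme, stood on opposite sides of 0 for DMEM against NPEM. Ube2c had 229, 212 and 274 TPM in NPEM, 210, 146 and 224 in DMEM, 196, 299 and 231 in CHIR, and 244, 150 and 231 in YN1. Every pair of its groups overlapped, and its highest library was CHIR replicate 2. The LogFC of Ube2c for DMEM against NPEM was -0.32 (SE 0.19, 95% interval -0.77 to 0.14) and that of Cdc20 was 0.30 (SE 0.19, -0.16 to 0.76). Mad2l1, a checkpoint protein that inhibits Cdc20, had a LogFC of -0.30 (-0.98 to 0.38).

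In the centromere and kinetochore group, Cenpa, the histone H3 variant that marks centromeres, was the other gene besides Cdk1 with groups that did not overlap in any comparison. The shares of all genes with groups that did not overlap, in either direction, were 22.2% for DMEM, 17% for CHIR and 21.1% for YN1, each against NPEM, 26% for CHIR against DMEM, 2.54% for YN1 against DMEM and 23.1% for YN1 against CHIR. Cenpa had 155, 137 and 157 TPM in NPEM, 176, 111 and 159 in DMEM, 160, 207 and 166 in CHIR, and 191, 112 and 166 in YN1. The 3 CHIR libraries were above the 3 NPEM libraries, by as little as 160 against 157 TPM, which 5.66% of all genes showed with the first group higher. Its LogFC was 0.24 (SE 0.14, 95% interval -0.10 to 0.58) with an adjusted p of 0.604 in limma.

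Birc5, which encodes survivin of the chromosomal passenger complex, had 233, 164 and 215 TPM in NPEM, 193, 121 and 191 in DMEM, 173, 238 and 175 in CHIR, and 195, 120 and 194 in YN1. Its replicate 2 libraries were the lowest of 3 groups and the highest of CHIR, and its LogFC for YN1 against NPEM was -0.29 (SE 0.23, 95% interval -0.84 to 0.27). Cenpf had 24.2, 21.6 and 34.6 TPM in NPEM, 29.8, 24.8 and 35.3 in DMEM, 27.3, 41.7 and 24.3 in CHIR, and 39.0, 25.0 and 37.3 in YN1. The groups overlapped, and the LogFC for YN1 against NPEM was 0.33 (95% interval -0.27 to 0.92). Spc25, another subunit of the NDC80 complex, had 137, 123 and 119 TPM in NPEM, 174, 129 and 155 in DMEM, 102, 208 and 117 in CHIR, and 156, 134 and 155 in YN1. Each DMEM value of Spc25 was above the NPEM value of its own number, though the groups overlapped, and the LogFC was 0.26 (SE 0.14, 95% interval -0.07 to 0.60). The remaining kinetochore genes Cenpe, Ndc80 and Nuf2 had LogFC of -0.04, 0.14 and 0.09 for DMEM against NPEM.

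Of the 4 mitotic kinesins, Kif11, the motor that pushes the spindle poles apart, was the one furthest below NPEM. It had 77.5, 50.05 and 60.1 TPM in NPEM, 57.1, 40.4 and 49.6 in DMEM, 37.7, 65.9 and 42.8 in CHIR, and 55.0, 39.9 and 54.5 in YN1. The value in DMEM and in YN1 was lower than that in NPEM for each number, while CHIR was lower for numbers 1 and 3 and higher for number 2. Its LogFC against NPEM was -0.34 for DMEM (SE 0.21, 95% interval -0.83 to 0.15), -0.37 for CHIR (-0.97 to 0.23) and -0.31 for YN1 (-0.82 to 0.19). Kif23, Kif2c and Kif4, motors of the midzone, of microtubule ends at the centromere and of the chromosome arms, were between -0.08 and 0.01 for DMEM against NPEM.

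Among the spindle and cytokinesis genes, Nusap1, which binds and bundles spindle microtubules, had 78.3, 60.7 and 62.0 TPM in NPEM, 72.1, 57.6 and 62.2 in DMEM, 41.6, 72.6 and 46.8 in CHIR, and 72.0, 59.3 and 66.5 in YN1. CHIR replicates 1 and 3 were the lowest of the 12 libraries and CHIR replicate 2 was among the highest, and the LogFC for CHIR against DMEM was -0.28 (SE 0.23, 95% interval -0.82 to 0.25). All 6 genes of this role were above 0 for YN1 against DMEM (LogFC 0.04 to 0.24), with the largest value for Anln, the anillin scaffold of the contractile ring (95% interval -0.49 to 0.98). Top2a had 301, 210 and 296 TPM in NPEM, 244, 153 and 256 in DMEM, 230, 328 and 272 in CHIR, and 292, 160 and 258 in YN1. Its replicate 2 libraries held both the 3 lowest values and the highest, and its LogFC for CHIR against DMEM was 0.37 (SE 0.24, 95% interval -0.20 to 0.93). Mki67, the proliferation marker that coats mitotic chromosomes, had group means of 86.2 TPM in NPEM, 84.7 in DMEM, 82.9 in CHIR and 92.1 in YN1, and the LogFC of the condensin subunits Ncapg and Ncaph for CHIR against DMEM were 0.20 and 0.15.

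**Figure D3:**
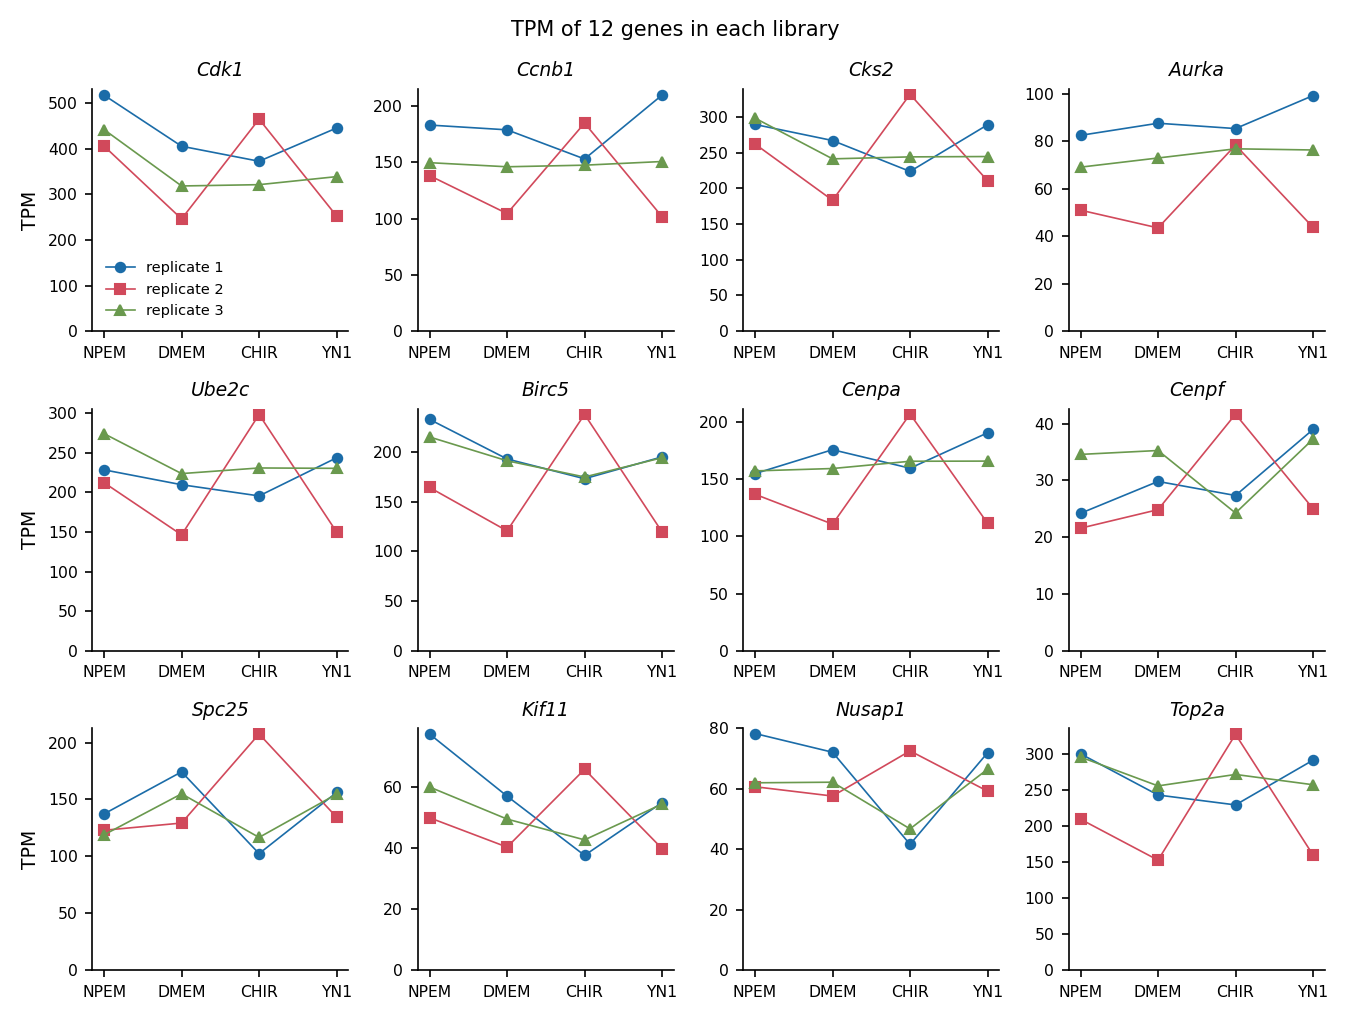
TPM of 12 of the genes in each library, by group (x axis) and replicate number (colour and marker), with each axis starting at 0. The lines of replicate 2 turn upward at CHIR in all 12 panels, for Cdk1 to 465 TPM, while those of replicate 1 go down from DMEM to CHIR.

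Over the 12 libraries, the median gene of the 35 had 8.46% of its sum of squares between groups, 34.1% between replicate numbers and 54.4% in neither, beside 33.8%, 35.9% and 19.7% for all genes, each share being a median of its own. The share of the number was larger than that of the group in 27 of the 35 genes, and the group had the larger share in the other 8, Cdk1, Cks2, Ube2c, Cenpf, Spc25, Kif11, Nusap1 and Mki67, among them 36.8% for Cdk1. Without the CHIR libraries, the replicate number held 87.2% and the group 6.26% in the 35 genes, beside 47.9% and 23.0% in all genes. The split was not repeated without any other group. The replicate 2 library was the lowest of its group for 30 of the 35 genes in NPEM, for 35 in DMEM and for 35 in YN1, where 33.3%, 30.2% and 31.6% of all genes were lowest in that library. In CHIR the replicate 2 library was the highest for 34 of 35 genes, where 34.8% of all genes were.

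**Figure D4:**
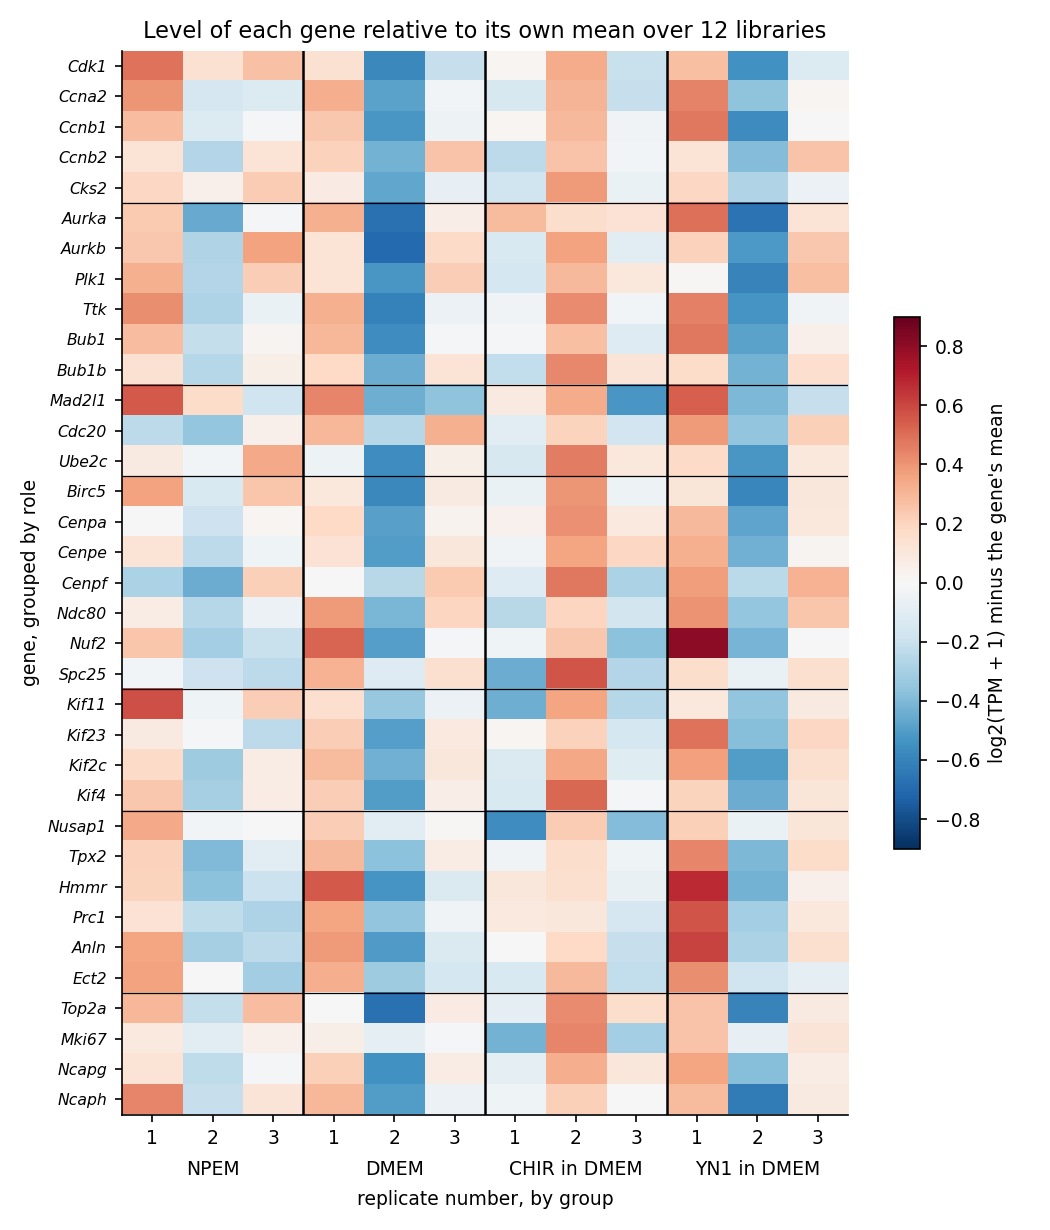
Level of each of the 35 genes (rows, grouped by role) in the 12 libraries, as log2(TPM + 1) minus the gene's mean over all libraries (red higher, blue lower). The columns of replicate 2 are blue in NPEM, DMEM and YN1 for most genes and red in CHIR, where 34 of 35 genes have their highest library of the group.

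Between libraries of the same number, CHIR and DMEM differed in opposite directions. For number 1, all 35 genes were lower in CHIR, with a median difference of -0.34 in log2(TPM + 1) (all genes -0.10). For number 2, all 35 were higher, with a median of 0.78 and a range of 0.33 to 1.10 (all genes -0.23). For number 3, 23 were lower and 12 higher, with a median of -0.11 (all genes -0.13). The summed TPM of CHIR over DMEM was accordingly 0.815, 1.75 and 0.929 for numbers 1, 2 and 3. Lower in number 1, higher in number 2 and lower in number 3 was the pattern of 23 of the 35 genes (65.7%) and of 6.91% of all genes, and the remaining 12 genes were higher in number 3 as well. Against NPEM the CHIR libraries showed the like: 31 genes lower with number 1 (median -0.36), 35 higher with number 2 (0.53) and 23 lower with number 3 (-0.12). Each number has 1 library per group, so a difference between numbers has no replicate and was not tested.

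YN1 and DMEM libraries of the same number lay close together. The median difference of the 35 genes was 0.12, 0.04 and 0.06 for numbers 1, 2 and 3, with 27, 27 and 31 genes higher in YN1, and 20 genes (57.1%) were higher in all 3 numbers, as were 16.8% over the whole set. The summed TPM of YN1 over DMEM was 1.09, 1.03 and 1.04. With the replicate number as a block, no gene had an adjusted p under 0.05 in limma, and Anln and Kif23, 2 of the 35, were under 0.05 without adjustment, as were 7.41% of all genes. For DMEM against NPEM, the sums gave 0.977, 0.793 and 0.962, so the number 2 pair differed most, with 30 of 35 genes lower in DMEM there (median -0.27, all genes 0.14) and 17 and 13 lower in the other pairs. Under the block, 9 of the 35 genes had an unadjusted p under 0.05 for DMEM against NPEM, 7 lower and 2 higher, beside 30.2% of all genes.

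**Figure D5:**
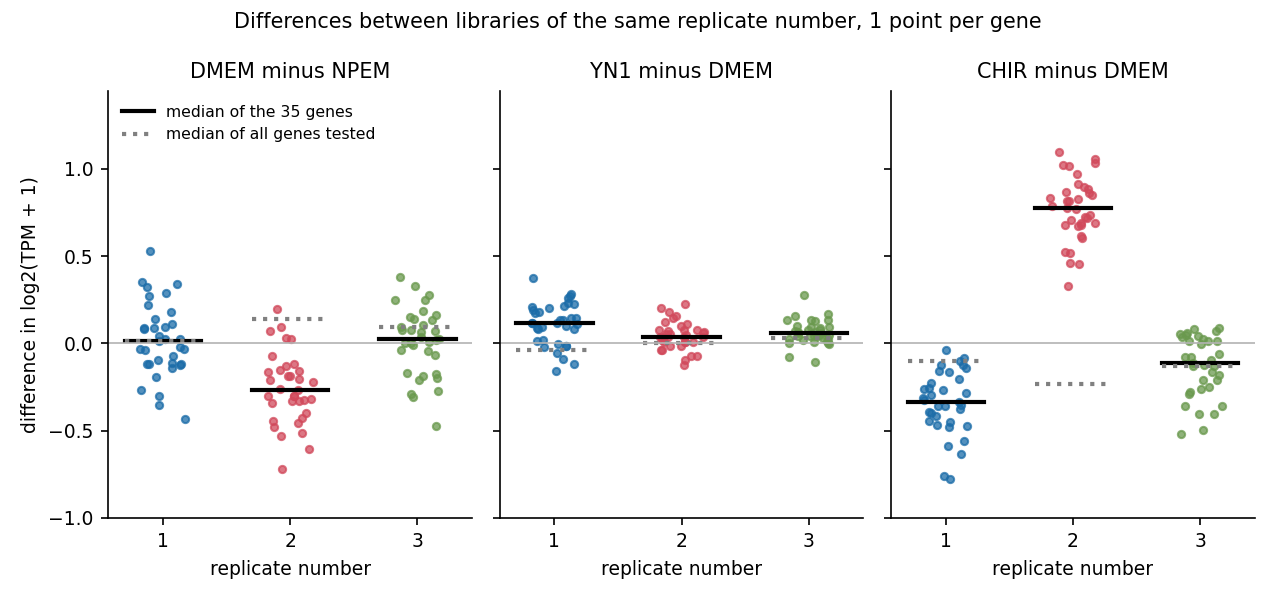
Differences in log2(TPM + 1) between libraries of the same replicate number, 1 point per gene (35 per column), with the median of the 35 genes (black) and of all genes tested (grey, dotted). Each column of DMEM minus NPEM and of YN1 minus DMEM has points on both sides of 0, whereas CHIR minus DMEM has all points below 0 for number 1 and all above 0 for number 2 (0.33 to 1.10).

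Leaving out 1 library left the groups compared with unequal sets of replicate numbers. In each of the 6 comparisons, the median LogFC of the 35 genes then changed sign for at least 1 such library. For CHIR against DMEM it was -0.01 without CHIR replicate 2 and -0.10 without DMEM replicate 2. Without replicate 2 of both groups, 33 of the 35 genes were below 0 there (median -0.22, all genes -0.11), and without replicate 1 of both groups 33 were above 0 (median 0.35, all genes -0.18). For DMEM against NPEM the median was 0.14 without DMEM replicate 2, with 28 genes above 0, and 0.05 without NPEM replicate 1, with 23 above 0. For CHIR against NPEM it was -0.09 without CHIR replicate 2 and -0.07 without NPEM replicate 2. For YN1 against NPEM it was -0.15 without YN1 replicate 1 and 0.19 without YN1 replicate 2. For YN1 against DMEM, 32 genes were below 0 without YN1 replicate 1 (median -0.10) and without DMEM replicate 2 (-0.13), while the median was 0.05 to 0.10 when a number was left out of both groups. For YN1 against CHIR the median was 0.19 without YN1 replicate 2 and 0.09 without CHIR replicate 2, and all 35 genes were above 0 without replicate 2 of both groups (0.34). No gene of the 35 passed the adjusted p in any of these fits.

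Other measures moved with the replicate number as well, and their part in the pattern was not tested. The transcription factor gene Six2, which marks NPCs, had its highest value in replicate 2 of each group (170 TPM in NPEM, 175 in DMEM, 125 in CHIR, 168 in YN1) and was at 27.2 TPM or more in every library. The summed TPM of 8 nephron progenitor markers was highest in replicate 2 of each group, from 482 in CHIR to 730 in NPEM. Of these markers, Cited1, Osr1 and Gdnf were also highest in replicate 2 of each group. Eya1, Sall1, Pax2 and Wt1 were not so in every group, and Pax2 and Wt1 were highest in replicate 3 of DMEM and YN1. The sum of 8 stroma markers, most of it Col1a1 and Col3a1, was lowest in replicate 2 of each group. It was 694 to 1170 TPM there against 888 to 3666 in the other libraries. Not every marker followed the sum. Col1a1, Col3a1 and Pdgfrb were lowest in replicate 2 of each group, Meis1, Pdgfra and Dcn in replicate 3 of each, and Foxd1 and Tbx18 differed between groups. Markers of nephron differentiation summed to 84.1 to 240 TPM in CHIR and 22.4 to 85.3 in the other groups. Wnt4 alone had 39.1 to 176 TPM in CHIR and 0.306 to 18.0 in the other groups. Pax8 and Cdh6 in CHIR lay within the range of the other groups, and Jag1 lay above it only in replicate 3, at 29.0 TPM. Markers of the ureteric bud summed to 7.27 to 54.7 TPM over all libraries. Those of endothelium, mostly Emcn, summed to 14.8 to 32.2 in CHIR and 76.8 to 240 in the other groups. Those of blood and immune cells summed to 4.55 to 12.4 over all libraries. Adgre1 and Hbb-bt were at 0 throughout and Cdh5 of the endothelium at 0.0227 TPM or less. Mir6236, a small RNA gene, had 14567 to 21181 TPM in the replicate 1 libraries and 33929 to 52316 in the others, and genes at 1 TPM or more numbered 13754 to 14569 per library. The depth behind each value is unknown, since TPM keep no read numbers.

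Of the other genes of G2 and mitosis, in 6 lists, none passed the adjusted p in any comparison in limma. For DMEM against NPEM the 19 further regulators of mitotic entry had a median LogFC of -0.16, the 14 transcription factor genes of G2 and M -0.11, 28 other kinetochore and passenger subunits -0.04, the 17 genes of condensin, cohesin and separase -0.09, 20 other motor, spindle and cytokinesis genes 0.06 and the 17 subunits and partners of the anaphase-promoting complex 0.05, beside 0.09 for all genes. The kinetochore list holds 29 genes and the motor list 21, and 1 gene of each did not pass the filter on low values. At an unadjusted p under 0.05 there (limma), which 15.5% of all genes had, 3 of the 19 entry regulators were lower. Among these 3 were Cdc25a (LogFC -0.55), a phosphatase that activates CDKs, and Lmnb1 (-0.39), lamin B1. Of the 14 transcription genes, 1 was higher (Lin37 of the MuvB core, 0.61) and 2 were lower. Of the 17 genes of condensin, cohesin and separase, 1 was lower (Smc1a, -0.33), with none in the other lists. These counts were not tested against the share of all genes. The genes named from here on were chosen after their values were seen. With the replicate block, where 6.5% of all genes were called, the calls in these lists were Cdc25a, Hmgb2 (-0.44), a chromatin protein, Tfdp1 (-0.50), the partner of E2F factors, and Nfya (-0.50), a subunit of NF-Y. For CHIR against DMEM, where the block called 12.8% of all genes, it called Tfdp1 (0.52), Rbl2 (-0.81), which encodes the repressor p130, Numa1 (-0.59), a spindle pole protein, and Anapc2 (-0.46), a subunit of the anaphase-promoting complex. Foxm1, a transcription factor of G2 and M genes, had 72.4, 59.5 and 74.4 TPM in NPEM and 84.2, 45.7 and 70.2 in DMEM. In CHIR it had 68.5, 69.7 and 58.3 TPM, and in YN1 95.1, 50.1 and 80.9. Mybl2, which encodes B-MYB, had 29.6, 21.5 and 27.7 TPM in NPEM, 23.7, 12.6 and 17.5 in DMEM, 25.5, 27.1 and 21.6 in CHIR, and 28.3, 11.4 and 21.5 in YN1. For both genes replicate 2 was the lowest library of NPEM, DMEM and YN1 and the highest of CHIR. For Foxm1 in CHIR this was by 69.7 against 68.5 TPM in replicate 1.

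Some of the levels may rest on shared sequence. The libraries were not strand-specific, and in the GENCODE vM1 annotation (NCBIM37) the exons of 7 of the 35 genes overlap those of another gene: Ccna2 with Exosc9, Cdc20 with Elovl1, Kif4 with Pdzd11, Ncapg with Lcorl, Nusap1 with Oip5 and Ube2c with Tnnc2, all on the opposite strand, and Top2a with a small nucleolar RNA gene on the same strand. The overlaps are 53 to 697 bases long at their longest, and reads within them cannot be assigned by their strand. How far this affects the levels was not tested. The pseudogene Ccnb1-ps was listed at 0.45 TPM or less in every library.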

How the data were processed

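RNA of 12 libraries was poly-A selected and sequenced without strand. The authors aligned the reads with STAR and RSEM (mm9 and mm10 in the submitters' processing notes), quantified transcripts with Kallisto and deposited TPM per library, collapsed to genes; versions are not given in the sources used here. The deposited tables also hold the authors' own Sleuth results, an effect on a natural log scale and q-values, and 2 further tables hold LogFC and p-values from the authors' comparisons; none of these was used.

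TPM were read as deposited. In each comparison of 3 with 3 libraries, genes that reached 1 TPM in 3 or more of the 6 were tested on log2(TPM + 1), a scale that understates changes of low genes, with limma 3.58.1 (lmFit, then eBayes with trend) run in R 4.3.3. Tests were two-sided, and p-values were adjusted by Benjamini-Hochberg for all genes in the comparison. The test was tried on simulated data, drawn independently for each library and gene. That trial cannot show how the test behaves where libraries of the same number are correlated, as here. P-values set the difference of the groups against the spread between these libraries, which without the block includes the differences between replicate numbers. The replicate numbers come from the labels, where the library without a number is number 1. Over 15680 genes, deviations from group means had correlations of 0.349 to 0.689 in the 18 pairs of the same number. Those of the 36 other pairs were -0.452 to -0.0698, partly by construction, since deviations within a group cancel out. The mean deviation of the G2 and mitosis genes had the same sign in 9 of the 18 pairs and in 18 of the 36. Its signs were opposite in each same-number pair with a CHIR library. The number was also fitted as a block, on the basis of the correlations over all genes. Other alternatives were quantile normalization, no filter, a mean level of at least 5 TPM, 0.1 as pseudocount, one fit to the 4 groups together, limma without trend and leaving out libraries, and, chosen after seeing the data, leaving out both libraries of a number.

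The members and lists were chosen with earlier results of these data known. Values in every library are given for the 4 genes the study names for RNA, genes past the adjusted p, and the 5 smallest p in each comparison with NPEM and in CHIR against DMEM, 12 genes in all. Of 183 genes in 13 lists, 3 were not found under the symbols searched: Cdc25c, Incenp and Kif20a. Further genes of the lists did not pass the filter on low values in some comparisons and were not tested there. Promoter windows are from RefSeq (GRCm38.p6); motifs were searched on both strands. Figures were drawn with matplotlib 3.10.9 in Python 3.11.15.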

Additional observations from a re-analysis of the deposited data

How the results depend on the processing

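No gene of the 35 was called in a main comparison, so no call could be lost. Of 1224 results of the 12 genes given by library under other settings, 1223 stayed uncalled, which says little with 3 libraries per group, and 127 changed sign. The exception was Cdk1 for DMEM against NPEM, whose LogFC of -0.51 passed with the replicate block (adjusted p = 0.0459, limma), so that the count of called genes among the 35 moved from 0 to 1 there. Over the 17 alternatives its adjusted p was 0.0459 to 0.740, and without 1 library or number its LogFC was -0.69 to -0.33. The block changed no other call of the 35. The counts over all genes depended on the setting: for CHIR against DMEM, 36 genes passed, 1832 with the block, 373 with all 4 groups in one fit, 3381 with both, 2 after quantile normalization, 1 with a minimum mean of 5 TPM and 0 without the filter. For DMEM against NPEM 64 passed, 933 with the block, 168 with all 4 groups and 5 without the filter. The depth is unknown, and 3 libraries per group limit the precision. For YN1 against DMEM, 0 genes passed, with 75 at an unadjusted p under 0.05, and limma without trend called 1.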

Other observations

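Genes of DNA replication and the G1/S transition, which act before those of G2 and mitosis, were not alike in the comparison of the media. For DMEM against NPEM all 24 of them were below 0, with a median LogFC of -0.54, beside -0.05 for the 35 G2 and mitosis genes and 0.09 for all genes, and for YN1 against NPEM all 24 were below 0 with a median of -0.51. None passed the adjusted p without the block, and 14 had an unadjusted p under 0.05 for DMEM against NPEM (limma, 15.5% of all genes). With the replicate block 5 were called, where 6.5% of all genes were, all lower in DMEM: Uhrf1 (LogFC -0.98), a factor of maintenance DNA methylation, Pcna (-0.77), the sliding clamp, Tk1 (-0.73), thymidine kinase, Cdt1 (-0.66), a licensing factor, and Mcm2 (-0.56), a subunit of the replicative helicase. For YN1 against NPEM the block called none of the 24 and 0.754% of all genes. Without it, 12 of the 24 were under 0.05 before adjustment, as were 14.2% of all genes.

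For CHIR against DMEM 23 of the 24 genes were above 0 with a median LogFC of 0.37, and the block called 1 of them, Cdt1 (0.55), where it called 12.8% of all genes. By number, the median differences were 0.08, 0.94 and 0.11 for numbers 1, 2 and 3, with all 24 genes higher in CHIR for number 2. The difference between the 24 and the 35 genes was not tested.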
